A study of Caenorhabditis elegans with 4 samples.

Results

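Binding of LSY-2, a transcription factor with zinc fingers, was mapped in fed first-stage (L1) larvae of the nematode Caenorhabditis elegans. The binding regions described here are those that crowd together: regions of the combined peak list that lie in 20 kb windows holding 5 or more regions. Overlapping entries of the list (at least 1 shared bp) were first merged into 5963 regions, and each nuclear chromosome was tiled in 20 kb windows from position 1. Of these regions, 1146 (19.2%) lay in 195 dense windows and are the members. They were set against the 1274 regions (21.4%) that were alone in their window; the other 3543 lay in windows of 2 to 4 regions. Members were chosen by the positions of regions in the combined list, so the crowding itself is a description and carries no test.

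A transcription factor contacts DNA at short sites, often in promoters and enhancers, and chromatin immunoprecipitation followed by sequencing (ChIP-seq) reports the stretches around them as peaks. The worm genome is compact, with closely spaced genes, so one 20 kb stretch can contain several regulatory regions. In the worm, LSY-2 is needed for the pair of ASE taste neurons to become different from each other on the left and right sides. The chromatin came from whole larvae, so a dense window may combine sites bound in different cells.

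There were 2 ChIP samples and 2 input samples, all from hermaphrodite fed L1 larvae of strain OP367, grown at 20 °C and crosslinked with 2% formaldehyde. All carry the unc-119(ed3) mutation and the bombarded transgene wgIs367, in which lsy-2 is joined to TY1, EGFP and FLAG tags and which also bears unc-119. The genotype names no change at the worm's own lsy-2 gene, and the anti-GFP antibodies collect the tagged protein only. Nothing in the labels tells whether replicates came from different cultures, so the spread between them may be technical.

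Each ChIP replicate has its own list of 30000 entries, and a combined list holds 6064; positions are in the WormBase WS220 build. Peaks are ordered by the number in their name, called the rank here. The basis of this number is not stated, and 1 is taken as the strongest. Strong and weak refer to this rank throughout. The lists give no read counts, so sequencing depth is unknown, and the input samples are not analysed here. No expression values were used, so the tagged gene could not be checked in each sample. Shares of regions carry 95% Wilson intervals, which reflect counting error alone and are narrower than they should be where neighbours depend on each other.

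Dense windows were rare and most were only just dense. The 195 windows made up 3.89% of the 5014 windows of the genome and 3.9 Mb of sequence, while 2163 windows held no region. Of the dense windows, 106 held 5 regions, 47 held 6, 23 held 7 and 12 held 8. Only 7 held more than that, and 4 of those held 10 or more. Just outside the threshold, 192 windows held 4 regions. Membership of a single region also depends on where windows begin: with windows shifted by 10 kb, 673 of the 1146 members (58.7%) were again in a dense window.

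The most crowded window was on chromosome II, from 10540001 to 10560000, with 14 regions. Replicate 1 had 14 regions there among its 6064 best-ranked entries and replicate 2 had 16. The first region began at 10541945 and the last ended at 10559148, so they ran through most of the window, with a median of 1185 bp between neighbouring centres. Strong and weak regions were interspersed along it. The strongest, at 10551908 to 10552295, had combined rank 375, with 362 in replicate 1 and 390 in replicate 2. The next were at 10548850 to 10549357 (rank 793) and at 10541945 to 10542395 (rank 812). The weakest, at 10545050 to 10545399, ranked 5508. The median over the 14 regions was 3180 in the combined list.

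A pair of windows held 13 regions each and differed from one another. On chromosome III, from 1920001 to 1940000, replicate 1 had 15 regions and replicate 2 had 12, and 4 of the 13 combined regions were among the 1516 best-ranked entries of the list. Its strongest region, at 1924984 to 1925559, ranked 390 in the combined list. On chromosome II, from 6820001 to 6840000, none of the 13 regions was among those 1516. The strongest there, at 6827501 to 6827673, ranked 1676, and the median was 3963. Replicate 1 had 8 regions in this window and replicate 2 had 15, which was the widest gap between replicates in any dense window. With all 30000 entries, both replicates had 25 regions in it.

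The other windows among the 10 densest held 8 to 10 regions. The window of 10 was on chromosome I, from 7080001 to 7100000, with 13 regions in each replicate, and its strongest region ranked 250. The windows of 9 were on X (4140001 to 4160000), on IV (4020001 to 4040000) and on II (8740001 to 8760000). In that last window the 9 regions sat within 7012 bp, measured from the first centre to the last, and the rest of the window held no combined region. Of the 12 windows of 8, the 3 with the best-ranked regions were on X (2080001 to 2100000, best rank 74), on II (8120001 to 8140000, best rank 93) and on III (13060001 to 13080000, best rank 226). In these 10 windows the best-ranked 6064 entries of a replicate gave between 7 and 16 regions.

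**Figure D1:**
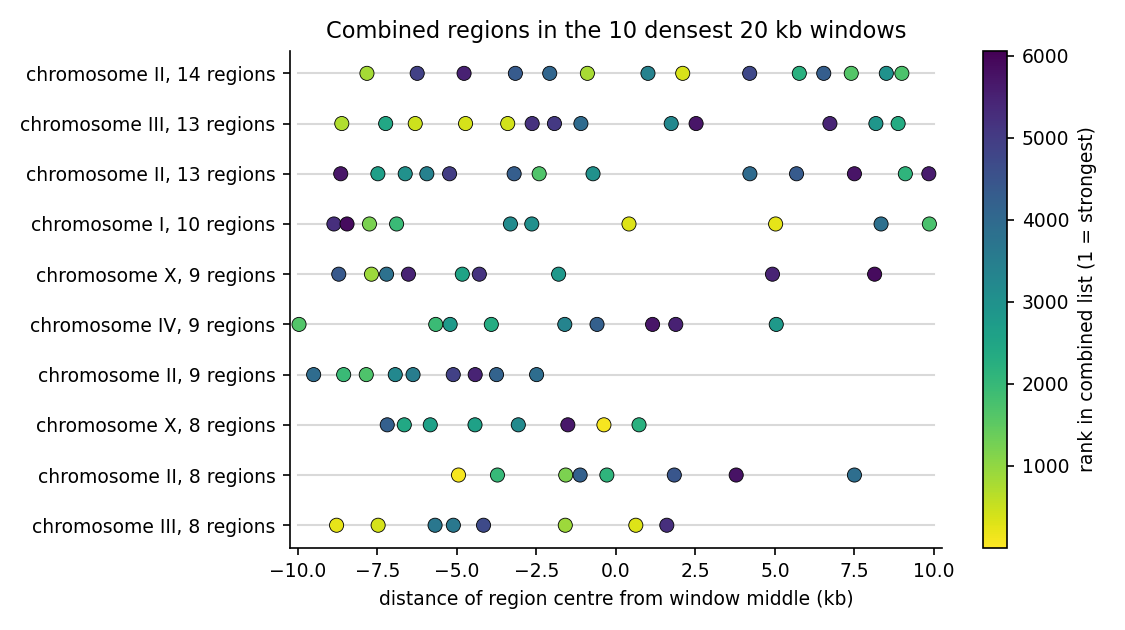
Positions of the combined regions in the 10 densest windows, one row per window with the densest at the top; the x axis is the distance of a region's centre from the middle of its window in kb, and colour gives the rank in the combined list (yellow, strong; dark, weak). In the top row, on chromosome II, weaker regions lie between the 3 strongest (ranks 812, 793 and 375). In the second row, on III, the 4 strongest (ranks 726, 462, 390 and 425) all lie on the left side. How far strong and weak regions are mixed along the windows was not measured. The 9 regions of the third window on chromosome II fill only its left side.

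Within dense windows, regions were mostly 1 to a few kb apart. The 951 gaps between neighbouring centres had a median of 1613 bp, with the middle 50% from 974.75 to 3292 bp, and the shortest was 158 bp. A total of 244 gaps (25.7%) were under 1 kb. From the first centre to the last, the regions of a dense window spread over a median of 12734 bp, with a range of 2909 to 19688 bp. In many dense windows the first and last regions were therefore far apart, while some windows held a tight group. How evenly regions filled the stretch between was not measured. Because the rule asks for 5 regions in 20 kb, short spacing follows from it and is not set against other regions.

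Dense windows stood mostly alone. Only 31 of the 195 had another dense window directly beside them, and these formed 14 runs of 2 windows and 1 run of 3. The run of 3 was on chromosome I, from 6060001 to 6120000, with 18 regions. The runs with most regions were this one and a pair of windows on II, from 6820001 to 6860000, also with 18. The windows on either side of a dense window held a mean of 1.84 ± 1.23 regions (SD, n = 195), and those beside a single-region window held 1.20 ± 1.05 (SD, n = 1274), near the mean of 1.19 over all windows. A dense neighbour was found for 15.9% of dense windows and for 7.61% of single-region windows, so dense windows had one more often. The share over all windows was not computed. Windows beside a dense one were thus mostly far from dense, although they held more regions than the average window.

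The same windows were crowded in each replicate's own list. With the 6064 best-ranked entries of each replicate merged in the same way, dense windows held a mean of 5.53 ± 1.82 regions in replicate 1 and 5.62 ± 2.02 in replicate 2 (SD over 195 windows). Single-region windows held 1.02 ± 0.50 and 1.01 ± 0.52 regions (SD over 1274 windows). No dense window was empty in either replicate, and the lowest counts were 2 and 1; no single-region window reached 5, and the highest count was 4 in both. Both replicates went into the combined list, so the selection of its entries favours such agreement, and no test was made of it.

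**Figure D2:**
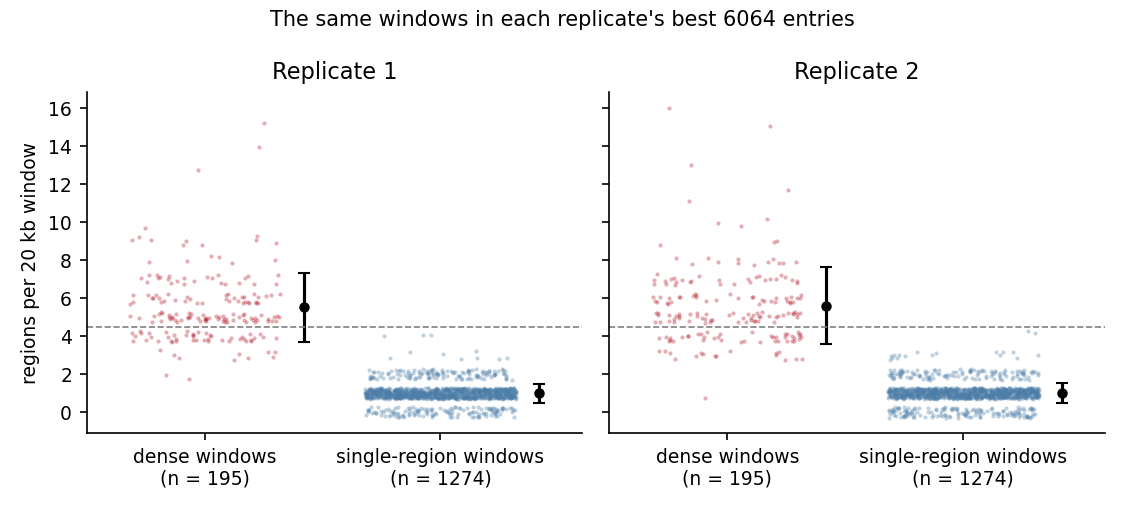
Regions per 20 kb window in the 6064 best-ranked entries of replicate 1 (left) and replicate 2 (right), for dense windows (red) and single-region windows (blue) of the combined list; each point is a window, spread slightly for visibility, black points and bars are the mean ± SD over windows, and the dashed line marks the minimum of 5. Dense windows centre on 5.53 and 5.62 regions, with part of them just under the line, and single-region windows stay at 4 or fewer.

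The threshold of 5 was crossed less stably than the crowding itself. Of the 195 dense windows, 140 (71.8%) held 5 or more regions in replicate 1 and 138 (70.8%) in replicate 2, where 3.51% and 3.77% of all windows did. A total of 106 windows (54.4%) were dense in all 3 lists, 66 in the combined list and 1 replicate, and 23 in the combined list only. Of those 23, 22 held exactly 5 combined regions and 1 held 6. Each replicate taken alone had 176 (replicate 1) and 189 (replicate 2) dense windows, of which 113 were shared, 64.2% of the first set and 59.8% of the second. Conversely, 7 windows were dense in both replicates and not in the combined list, and each of these held 4 combined regions.

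The windows just inside and just outside the threshold were a graded series in the replicates. Windows with 5 combined regions held 4.77 ± 1.06 regions in replicate 1 and 4.73 ± 1.16 in replicate 2 (SD, n = 106), and those with 4 held 3.74 ± 0.876 and 3.73 ± 1.18 (SD, n = 192). Of the windows with 7 combined regions, 22 of 23 were dense in replicate 1 and all 23 in replicate 2. All 19 windows with 8 or more were dense in both. Windows with 7 or more regions were thus nearly always dense in either replicate, while of those with 5 regions 59.4% were in replicate 1 and 57.5% in replicate 2.

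Large differences between replicates were few: the counts were 3 or more apart in 24 dense windows. Their counts were equal in 58 windows and within 1 of each other in 130 (66.7%), replicate 1 was higher in 67 and replicate 2 in 70, and the mean difference of replicate 1 minus replicate 2 was -0.087 ± 1.70 regions (SD, n = 195). After the window of 13 regions on chromosome II, the next widest gaps were on I, from 5300001 to 5320000, with 4 regions in replicate 1 and 9 in replicate 2, and on V, from 11800001 to 11820000, with 6 and 1. In this window on V, 4 of the 5 combined regions overlapped nothing within the best 6064 entries of replicate 2. The others named were on III, from 12420001 to 12440000, with 3 and 7 regions, and on I, from 9420001 to 9440000, with 7 and 3. Not every window with such a gap is named: windows on III starting at 10320001 (2 and 6) and at 4500001 (4 and 8) were as far apart. The gaps went both ways. In the named windows on I and on III from 12420001, the strongest region ranked alike in replicates 1 and 2. The ranks were 764 and 702, 233 and 250, and 88 and 99, whereas that of the window on V ranked 1822 and 7676.

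Weak entries were also denser in dense windows than in single-region windows, in windows with no combined region and over all windows. Among replicate entries ranked beyond 6064 that shared no base with a combined entry, dense windows held 3.89 regions per 10 kb of sequence outside combined regions in replicate 1 and 4.10 in replicate 2. Single-region windows held 2.13 and 2.26, and windows with no combined region held 1.23 and 1.35. Dense windows therefore had 1.83 times the density of single-region windows in replicate 1 and 1.81 times in replicate 2. For entries ranked beyond 20000 the ratio was 1.42 and 1.46. Over all windows the density of entries beyond 6064 was 2.01 and 2.15. Windows of 2 to 4 regions were not taken separately. The same ChIP samples gave the windows and the weak entries, so these values are a description and no separate evidence of crowding.

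Regions in dense windows were weaker on the whole than regions that stood alone. Their median rank was 3207 in the combined list, against 2636 for single regions. The best-ranked overlapping entry gave medians of 3210 for dense regions and 2756 for single regions in replicate 1, and 3218 and 2657 in replicate 2. The ratio of these medians was 1.22 in the combined list and 1.19 ± 0.033 over the replicates (SD, n = 2). In the combined list the median was 3016 over all regions and 3074 in windows of 2 to 4 regions. Single regions thus lay further from the median of all regions than members did. Among members the median was 3036.5 in windows of 5 regions, 3645 in windows of 6 and 3130 in windows of 7. Rank was not used to choose the members, but the same 2 ChIP samples gave both positions and ranks, and regions are not replicates, so no p-value is given.

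The difference was clearest in the share of strong regions. Of the dense regions, 236 (20.6%, 18.4 to 23.0) were among the 1516 best-ranked combined entries, against 378 of the single regions (29.7%, 27.2 to 32.2); over all combined regions the share was 25.3%. By rank in replicate 1 the shares were 21.7% of dense and 28.3% of single regions, and by rank in replicate 2 they were 21.4% and 29.4%, with 25.2% of all regions in both. The replicate means were 21.6% ± 0.199 for dense and 28.9% ± 0.782 for single regions (SD, n = 2). The difference was -7.31 ± 0.981 percentage points (dense minus single, SD, n = 2). Both replicates rank the same combined regions here, so this SD leaves out the variation from drawing the windows. When windows were instead drawn from 1 replicate's own best 6064 entries, the difference shrank to -5.99 percentage points without replicate 1 and -5.87 without replicate 2, against -9.08 in the combined list. The share did not change evenly with crowding: it was 29.7% in windows of 1 region, 24.97% in windows of 2, 24.98% in windows of 3, 26.0% in windows of 4, 22.6% in windows of 5 and 19.1% in windows of 6.

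Among the very strongest regions the classes were closer. Of the dense regions, 7.07% (5.72 to 8.70) ranked within the best 500, against 8.56% (7.14 to 10.22) of single regions, and these intervals overlap. Over all regions the share was 8.37%, within both intervals. The gap lay in ranks 501 to 1516, which held 13.5% of dense, 21.1% of single and 16.9% of all regions. Ranks 3033 to 4548 held 28.4% of dense and 22.1% of single regions. At the highest deposited score, the classes differed less than among the 1516 best-ranked entries in the combined list and in replicate 1. In replicate 2 they did not differ less. Of dense and single regions, 73.2% and 77.4% had the highest score of the combined list. The shares were 76.7% and 79.8% for the highest score of replicate 1, and 46.6% and 55.3% for that of replicate 2. The intervals overlapped in the combined list (70.6 to 75.7 and 75.02 to 79.6) and in replicate 1 (74.2 to 79.1 and 77.5 to 81.9), and not in replicate 2 (43.7 to 49.5 and 52.5 to 58.0). Over all regions, 73.9% had the top score of the combined list, 76.4% that of replicate 1 and 49.6% that of replicate 2, so by the scores of the combined list and of replicate 1 the dense regions were near the background.

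**Figure D3:**
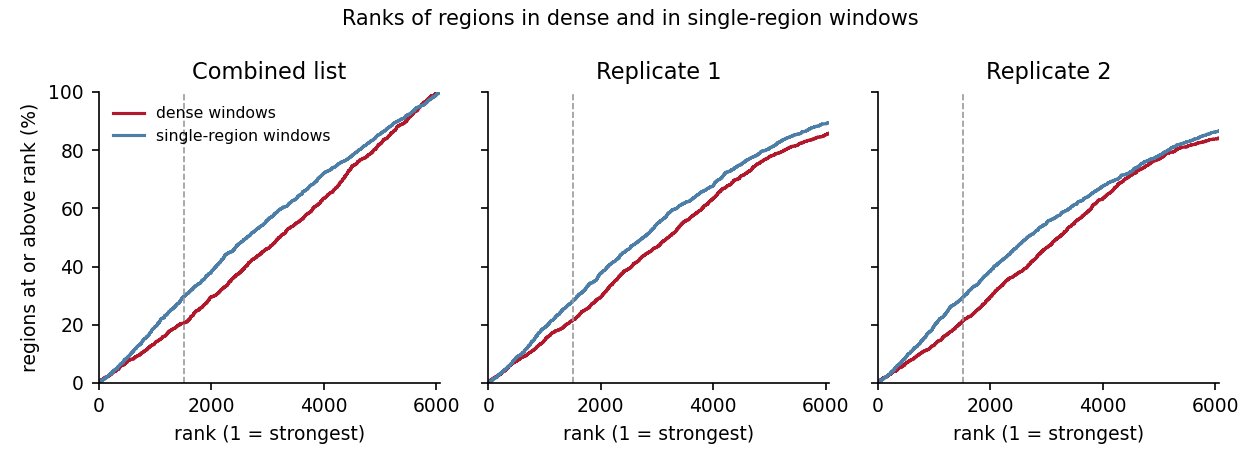
Cumulative share of regions at or above each rank (x axis, 1 is the strongest, cut at 6064; y axis, percent of regions) for dense windows (red) and single-region windows (blue), in the combined list and by the best overlapping entry of each replicate; the dashed line marks rank 1516. The red curve runs below the blue one through the middle ranks in all 3 panels, with 20.6% against 29.7% at the dashed line in the combined list, and the curves nearly meet at the very best ranks.

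Some dense windows nevertheless contained several strong regions. Of the 195, 136 held at least 1 of the 1516 best-ranked entries, 73 held 2 or more and 22 held 3 or more, with a maximum of 4. The other 59 (30.3%) held none. A window with more regions has more chances to hold a strong one, so these counts are not compared with single-region windows. The best-ranked member lay on chromosome I at 9619758 to 9620234 and ranked 4 in the combined list and in both replicates. Its window held 5 regions, 6 in replicate 1 and 4 in replicate 2. The next were on IV at 4749811 to 4750300 (rank 6 in the combined list), on III at 3867302 to 3867821 (rank 8), on II at 10868679 to 10869161 (rank 10) and on I at 9163279 to 9163729 (rank 14). These 5 members were 451 to 520 bp wide, above the common width of 350 bp. Neither replicate ranked any of them worse than 20.

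Strength was also set against the distance from a member to its nearest neighbour. The median rank was 3229 for the 433 members with another centre within 1 kb, 3322 for those at 1 to 2 kb, 2881 for those at 2 to 4 kb and 3145 for those at 4 kb or more. Of the 433, 18.2% (14.9 to 22.2) were among the 1516 best-ranked entries. Of the 411 with a nearest centre at 1 to 2 kb, 20.9% (17.3 to 25.1) were, and of the 210 at 2 to 4 kb, 24.3% (18.98 to 30.5). For the 92 members at 4 kb or more the share was 21.7% (14.5 to 31.2). The medians did not change steadily with distance, and the intervals of the shares overlap, so a change in the share with spacing was not detectable with these numbers.

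Dense regions were somewhat wider than single ones, although the median was 350 bp in both. Mean widths were 315 ± 93.1 bp for dense regions (SD, n = 1146) and 300.1 ± 92.5 bp for single regions (SD, n = 1274). Of dense regions, 8.46% were wider than 350 bp, 63.8% had exactly that width and 27.7% were narrower; of single regions the shares were 3.53%, 59.2% and 37.3%. Over all regions they were 5.17%, 62.8% and 32%, so the share at the common width was near that background in dense windows. Merged entries were more frequent too: 33 dense regions (2.88%) and 15 single regions (1.18%) were made of 2 or more entries. Over all regions 1.66% were. Regions wider than 350 bp ranked best in both classes, narrower ones next and those of common width worst: their median ranks were 520, 1557 and 4218 in dense windows, and 234, 1092 and 3895 in single-region windows.

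Nearly all members had a partner in both replicates. Among dense regions 1141 (99.6%, 98.98 to 99.8) overlapped an entry of both lists, and among single regions 1255 (98.5%, 97.7 to 99.04); over all regions the share was 99%. With all entries and an overlap of 50% of both intervals the order also turned, to 80.2% of dense and 82.9% of single regions. Partners in dense windows were more often several: 24.3% of dense regions overlapped 2 or more entries of replicate 1, against 14.4% of single regions, and 15.4% against 7.46% in replicate 2. Over all regions these shares were 17.7% and 11.1%. Between replicates, ranks differed by a median of 1.37-fold for dense and 1.32-fold for single regions, and by more than 2-fold for 20.5% of dense and 11.95% of single regions. The ratio also moved with rank in both classes, and dense regions ranked worse as a whole. The shares beyond 2-fold were neither split by rank nor computed over all regions. They are therefore not read as a difference in reproducibility between the classes. Among the 1516 best-ranked entries its median was 1.27-fold for dense and 1.25-fold for single regions, and among ranks 1517 to 3032 it was 1.34-fold and 1.27-fold. Among ranks 3033 to 4548 the order turned, with 1.39-fold and 1.40-fold, and among ranks 4549 to 6064 the medians were 1.56-fold and 1.53-fold.

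Dense windows were found on every nuclear chromosome, most often on III. Chromosome III held 51 of them, 7.40% of its windows, and 296 members, 24.9% of its regions. Chromosome I held 35 dense windows, II 32, IV 29, X 28 and V 20, which was 1.91% of the windows of V. By its own list, replicate 1 had 42 dense windows on III and 19 on V, and replicate 2 had 53 and 23. The share of a chromosome's regions that were members ran from 13.0% on V through 17.4% on IV, 18.3% on X, 18.9% on I and 20.7% on II to the value on III. Chromosomes with more regions per window also have more windows that reach 5, so these shares are not separate from overall density.

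On each autosome a larger share of members than of single regions lay in the middle. With each chromosome divided into 3 segments of equal length, the central one held 540 of 976 autosomal members (55.3%, 52.2 to 58.4) and 330 of 1052 autosomal single regions (31.4%, 28.6 to 34.2), where it held 43.9% of all autosomal regions. The share of members in the central segment ran from 48.0% on III to 73.1% on I, and that of single regions from 26.6% on I to 36.0% on IV. Of all regions it held 45.6% on I, 44.1% on II, 40.9% on III, 40.7% on IV and 49.1% on V. On V the share of members (52.7%, 43.5 to 61.8) was near that of all regions. On X the members were fewer in the centre, at 26.5% (20.4 to 33.6), than single regions, at 36.5% (30.4 to 43.0), and 29.9% of all X regions lay there. Dense windows called in each replicate gave 55.9% (replicate 1) and 52.1% (replicate 2) in the central segment of autosomes, and 20.8% and 20% on X. Chromosome IV was uneven in this, since replicate 1 put 8 of its 23 dense windows in the central segment and replicate 2 put 14 of 29 there. The difference between X and the autosomes was not tested.

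**Figure D4:**
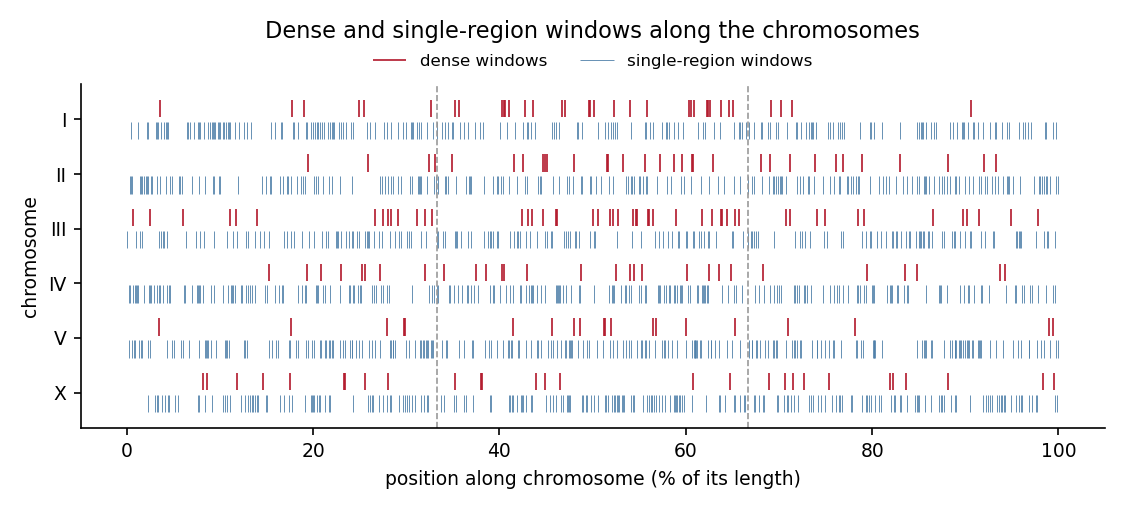
Dense windows (red, upper marks) and single-region windows (blue, lower marks) along each chromosome; the x axis is the position in percent of the chromosome's length, and dashed lines part the 3 segments of equal length. Red marks gather between the dashed lines on chromosome I, where 73.1% of members lie, and are sparse in the middle of X, where 26.5% do.

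The lower strength of dense regions was present on each autosome and small on X. The share of dense and of single regions among the 1516 best-ranked combined entries was 20% and 36.8% on II, 22.3% and 34.8% on III, 13.6% and 27.7% on V, 24.0% and 32.9% on I, and 24.1% and 30.6% on IV. Of all regions, 27.5% of those on II were that strong, as were 27.2% of those on III, 24.2% of those on V, 28.8% of those on I and 27.1% of those on IV. On X the share was 15.3% (10.7 to 21.5) of dense and 17.1% (12.7 to 22.6) of single regions, where 15.5% of all X regions were, so dense regions there were close to the background. The order was the same in both replicates on all 6 chromosomes; on X the shares were 15.98% and 18.8% in replicate 1, and 15.4% and 17.6% in replicate 2. Intervals overlapped on I, IV and X. The median combined rank on X was 3327 for dense and 3367 for single regions. By replicate 1 ranks these medians were 3292 and 3408, and by replicate 2 ranks 3653 and 3574, so their order differed between replicates. Whether X differs from the autosomes in this gap was not tested.

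Position along the chromosome moved with crowding, and the gap in strength was present within each kind of segment. In the central segments of the autosomes 20.7% (17.5 to 24.4) of dense and 29.4% (24.7 to 34.5) of single regions were among the 1516 best-ranked entries. In the outer segments the shares were 22.5% (18.8 to 26.6) and 33.7% (30.3 to 37.2). By rank in the replicates, dense and single regions of the central segments gave 21.7% and 28.7% in replicate 1, and 21.9% and 28.3% in replicate 2.

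**Figure D5:**
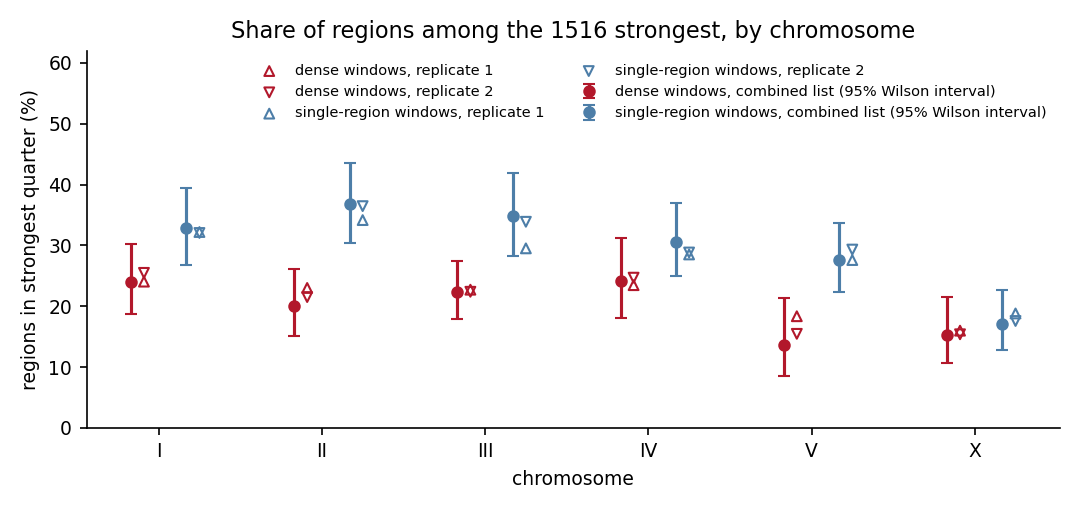
Share of regions (y axis, percent) among the 1516 best-ranked entries on each chromosome, for dense windows (red, left) and single-region windows (blue, right); filled points with bars are the combined list with 95% Wilson intervals, and open triangles are ranks in replicate 1 (up) and replicate 2 (down). Dense windows lie below single-region windows on all 5 autosomes, and on X both are near 15 to 17%.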

How the data were processed

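The authors deposited 3 peak lists in WormBase WS220 coordinates, per the file headers; the source field of each entry names SPP (a peak caller) and the irreproducible discovery rate, which compares ranks between replicates. For the aligner, versions, thresholds and use of the input: not given in the sources used here. Each replicate was called separately, and how the lists were combined is not stated further. The score that the authors deposited has no named scale and ties at its maximum in 4462 of 6064 combined entries. The number in the peak name therefore served as rank. It is the authors' value, its basis is not stated, and it was used to describe and rank peaks.

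Nuclear entries sharing at least 1 bp were merged, and a region took its best rank. Regions were assigned by centre to 20 kb windows (Python 3.11.15, pandas 2.3.3). Chromosome ends were the largest entry end in any list. For counts of regions per window, replicate lists were limited to their 6064 best-ranked entries, mitochondrial ones left out, unless all are named. Partners, replicate ranks and replicate scores of combined regions came from all nuclear entries of each replicate, unless the best entries are named. Weak entries shared no base with a combined entry. The window, merging and overlap steps were tested on simulated intervals and recovered 100% of planted regions. With 2 ChIP samples and regions that are no replicates, no p-value was computed; values are given per replicate with Wilson intervals.

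Named windows are the 10 with most regions (ties by best rank) and 5 with the widest gap between replicates, where further windows tied at the smallest of these gaps. Named regions are the 5 best-ranked members, and the runs and single regions of the densest window were chosen after their values were seen. Members, comparisons and named items were chosen with earlier results of these data known. Gene names and sequences are not given, since the available annotation has coordinates of a different assembly and no genome of the files' build was used.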

Additional observations from a re-analysis of the deposited data

How the results depend on the processing

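The gaps between dense and single regions in strong regions, rank and width kept their direction in every alternative run, whereas the order of dense and single regions in the share with partners in both replicates turned under both of its alternatives. Of 47 alternative values, 17 stayed within a set limit and 30 moved. The limit was the replicate spread, or 1.5 times for counts of regions. For the rank ratio between replicates it was a 95% interval of the median over regions, which are not replicates. The 1146 members became 439 with 10 kb windows, 2560 with 40 kb windows, 1914 with a minimum of 4 regions, 616 with a minimum of 6, and 82 among the 3032 best-ranked entries; leaving out a replicate gave 1057 to 1168. With windows shifted by 10 kb there were 1074 members, and 673 regions were members under both grids (58.7% of the main set), so membership of single regions depends on where windows start. The gap in the share among the best-ranked (dense minus single, -9.08 percentage points) was -6.82 with 40 kb windows, -6.75 with shifted windows, -6.89 with a minimum of 4, -10.8 with a minimum of 6, -7.97 when entries within 500 bp were merged and -7.04 among the best 3032, and -5.99 to -5.87 without a replicate. The ratio of median ranks (1.22) was 1.17 with 10 kb windows, 1.30 with a minimum of 6, and 1.17 to 1.19 without a replicate. The width gap (15.3 bp) was 8.50 with 10 kb windows, 21.2 with 40 kb windows, 11.4 with shifted windows, 18.1 with a minimum of 6, 59.3 when merged within 500 bp, which joins regions by construction, 13.5 unmerged, 12.1 among the best 3032, and 17.1 to 19.6 without a replicate. Members with partners in both replicates (99.6%) were 80.2% with 50% overlap of both intervals and 71.7% among the best 6064 entries; single regions (98.5%) were at 82.9% and 76.9%. Dense windows held 5.50 times the regions of single-region windows in the best replicate entries and 2.49 times with all entries. For weak entries the ratio (1.82) was 1.44 beyond rank 20000. The central share (55.3%) was 52.2% to 56.3% without a replicate. For these changes the cause was not tested, except where stated. No paired analysis was possible because the input samples have no values here and no test was run. Unknown depth leaves differences among weak entries open to sampling noise.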
